A study of Mus musculus with 3 samples.

Results

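Imprinted genes are the subject here: 45 mouse genes of which, in at least some tissues, only the copy from the father or only the copy from the mother is transcribed. They were taken by gene name from the annotation of the arrays, and 44 of the 45 had at least 1 probe, 83 probes in all, among 55681 probes for 35019 names on the array. *Rian* had none. Of the 44 genes, 38 were tested, among 22440 genes tested in all, since the scanner software marked a probe of theirs as well above background on all 3 arrays of some group. The other 6, *Rtl1*, *Usp29*, *Zim1*, *Calcr*, *Kcnq1* and *Gatm*, had no such probe, and no fold is given for them. By textbook knowledge 20 of the 45 are expressed from the paternal copy and 24 from the maternal copy, some of the latter only in placenta or brain, and *Gnas* gives different transcripts from either copy. Of the tested genes 18 were paternally and 19 maternally expressed.

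RNA was compared between 3 groups of mouse ES cells, with 3 single-colour arrays each. *Nr0b1* was intact, newly deleted or, in established lines, absent. All 3 groups derive from the male EB5 line, a derivative of E14tg2a, and carry constitutively expressed piggyBac transgenes for the tamoxifen-dependent recombinase MerCreMer and for Egfp. The *Nr0b1* fl-/Y −Tx ES cells kept the floxed allele and serve as the control. The *Nr0b1* fl-/Y +Tx ES cells had spent 4 days in 4-hydroxy tamoxifen (Tx), which deletes it. The *Nr0b1* KO/Y ES cells were established lines, which the paper derived from isolated and genotyped colonies after the deletion. The time or number of passages since the deletion is not given in the sources used here. The groups are written −Tx, +Tx and KO/Y from here on. *Nr0b1* (Dax1) encodes an orphan nuclear receptor of ES cells. The study compared +Tx with −Tx for the early effect of the loss and KO/Y with +Tx for the later one. How many clones the arrays represent, and whether the cells of the arrays were grown on mouse embryonic fibroblast feeders, is not given in the sources used here. The paper calls the samples biological triplicates.

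Imprinted genes lie mostly in clusters, each with a control region that carries DNA methylation on the copy from one parent and not on the other. The mark is set in the germ line and kept after fertilization by Dnmt1 and by the zinc finger protein Zfp57, which binds the methylated letters TGCCGC with Trim28. Within a cluster, paternally expressed genes are often growth promoting and maternally expressed genes often growth limiting, and several clusters hold a long noncoding RNA that silences its neighbours on the same chromosome. In ES cells the marks are known to be unstable in culture. The arrays measure the RNA of both copies together, so the copy of origin was not measured, and DNA methylation was not analysed here. In bulk RNA, fewer cells of a type and less RNA per cell cannot be told apart.

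Levels are log2 of a probe's processed intensity minus that of the 75th percentile on its own array, and they are compared only within a probe. Called means a change of over 2-fold with an adjusted p below 0.05 in limma, fitted over all 22440 genes. Rose and fell are used for genes that passed the adjusted p, whether or not they reached 2-fold. Each array had 28847 to 32555 probes well above background and no saturated spot, and arrays of a group correlated at r = 0.994 to 0.997 across genes. *Nr0b1* itself lay between 4.02 and 4.18 in −Tx, between -2.66 and -2.42 in +Tx and between -6.37 and -6.20 in KO/Y ES cells, where its probe was not well above background. The place of this probe relative to the deleted exon was not established. The −Tx arrays and +Tx array 1 were on 1 slide, and +Tx arrays 2 and 3 and the KO/Y arrays on the other, so −Tx and KO/Y ES cells never shared a slide.

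After 4 days with Tx none of the 38 tested genes was called, while in the established KO/Y ES cells 7 were called over −Tx ES cells. In +Tx over −Tx ES cells 0 of 38 were called in either direction by limma, against 1.75% of all genes higher and 0.762% lower. Before adjustment p was below 0.05 for 16 that were higher and 7 that were lower, against 3679 and 5116 of all 22440 genes. By the adjusted p alone 12 rose and 6 fell (11.9% and 14.7% of all genes), with log2 fold changes from -0.81 to 0.61 and a median of 0.14, against -0.06 over all genes. The KO/Y ES cells had 5 of 38 called higher than −Tx ES cells and 2 lower (4.72% and 2.84% of all genes). The 5 were *Mest*, *Plagl1*, *Nnat*, *Dlk1* and *Asb4*, and the 2 were *Cdkn1c* and *Phlda2*. *Nnat* is counted by a measured difference against signals at background, and its bound, given below, is under 2-fold. By the adjusted p alone 24 rose and 7 fell (20.5% and 26.4% of all genes), and the median was 0.44, against -0.06 over all genes. Over +Tx ES cells 3 were called higher in KO/Y ES cells, *Mest*, *Plagl1* and *Nnat*, and 0 lower (2.37% and 1.05% of all genes). Here p before adjustment was below 0.05 for 20 that were higher and 6 that were lower, against 3993 and 4489 of all 22440 genes. By the adjusted p alone 16 rose and 5 fell (12.1% and 14.1% of all genes), and the median was 0.20, against 0.01 over all genes. Arrays of the compared groups did not overlap for 16 higher and 8 lower imprinted genes in +Tx over −Tx ES cells (47% of all genes, either direction). In KO/Y over −Tx ES cells these were 25 and 8 (57.7%), and in KO/Y over +Tx ES cells 21 and 6 (39.7%). The comparisons share arrays, so their counts are not independent of each other. For KO/Y over −Tx ES cells, quantile normalization gave 5 higher and 1 lower, normexp background correction 3 and 0, and slide as a block or the mean of a gene's probes 3 higher each.

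**Figure D1:**
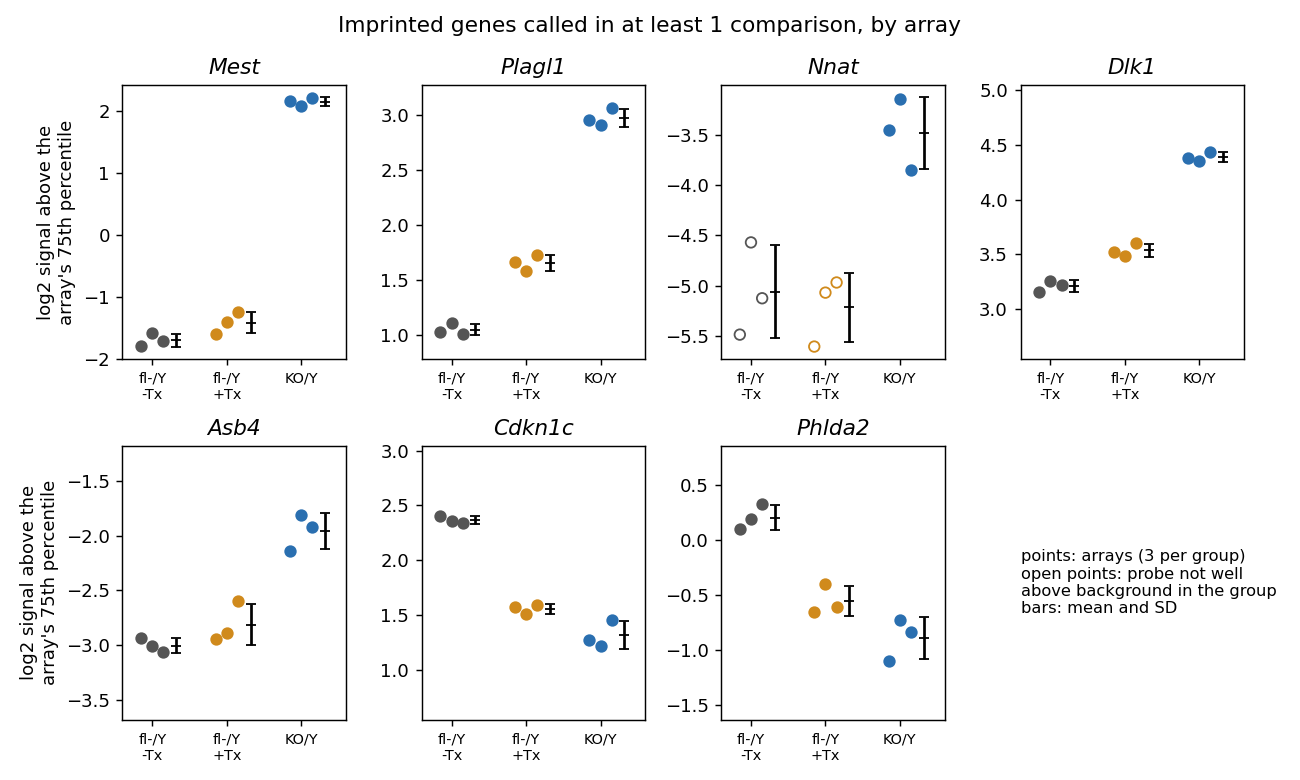
The 7 imprinted genes called in at least 1 comparison, as log2 signal relative to the 75th percentile of the array (vertical axis, a separate range in each panel) in −Tx, +Tx and KO/Y ES cells. Points are arrays, open where the probe was not well above background in that group, and bars are the mean and SD of 3 arrays; the KO/Y arrays of *Mest* lie above 2 and all other arrays of this gene below -1.

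*Mest* showed the largest change of the tested imprinted genes. It encodes a hydrolase-like protein of the endoplasmic reticulum that is abundant in embryonic mesoderm, and it is transcribed from the paternal copy. Its level on the 3 arrays was -1.80, -1.59 and -1.72 in −Tx ES cells, -1.59, -1.42 and -1.25 in +Tx ES cells, and 2.15, 2.07 and 2.21 in KO/Y ES cells. The 3 KO/Y arrays stood apart from the other 6, whereas the −Tx and +Tx arrays overlapped. On the log2 scale KO/Y exceeded −Tx by 3.84 (standard error 0.098, limma adjusted p = 2.64e-08), or 14.3-fold, and +Tx by 3.56 (11.8-fold). The early difference, +Tx over −Tx, came to 0.28 (standard error 0.098, adjusted p = 0.0675), which did not pass. The array had 3 probes for *Mest*, and all 3 were called higher in KO/Y ES cells. The second, at 30697385 on chromosome 6 of mm9, gave a log2 fold change of 3.06 in KO/Y over −Tx ES cells. The third, at 30692160, was not well above background on any −Tx array and was at least 6.24-fold higher in KO/Y ES cells. On the slide that holds +Tx arrays 2 and 3 and the KO/Y arrays, *Mest* had a log2 fold change of 3.47 (adjusted p = 0.000367).

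The neighbour of *Mest* in the cluster, *Copg2*, is a coatomer subunit gene that runs towards *Mest* from the other strand. The probes used for these genes lie close together on chromosome 6 in mm9, for *Mest* from 30698279 to 30698338 on the plus strand and for *Copg2* from 30698828 to 30698887 on the minus strand. *Copg2* was at 1.32, 1.21 and 1.13 in −Tx, at 1.07, 0.92 and 0.26 in +Tx and at 1.02, 0.91 and 1.09 in KO/Y ES cells. It passed the test in no comparison, with a log2 fold change of -0.21 in KO/Y over −Tx ES cells (standard error 0.185, adjusted p = 0.389). Array 3 of the +Tx group stood low, and the KO/Y arrays lay just below the −Tx arrays without overlapping them.

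*Plagl1*, a paternally expressed zinc finger transcription factor that can halt the cell cycle, rose at each step and separated the 3 groups. Its levels were 1.02, 1.10 and 1.01 in −Tx, 1.66, 1.58 and 1.73 in +Tx and 2.96, 2.91 and 3.06 in KO/Y ES cells. The log2 fold change was 0.61 in +Tx over −Tx (standard error 0.069, adjusted p = 0.000509), 1.93 in KO/Y over −Tx (3.82-fold, adjusted p = 1.84e-07) and 1.32 in KO/Y over +Tx ES cells (2.5-fold). Its probes disagreed. The probe used starts at 12850832 on chromosome 10 of mm9. A second one, at 12851280, gave 1.94 in KO/Y over −Tx ES cells, but 2 probes upstream of these, at 12848421 and 12848851, gave -0.05 and -0.22 and did not pass the test. These 2 were well above background on all 9 arrays. The rise was thus seen at the 2 brighter probes, and with the mean of the 4 probes the log2 fold change was 0.90, under 2-fold.

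*Nnat*, which encodes neuronatin, a small membrane protein of the endoplasmic reticulum, was well above background at its kept probe on the 3 KO/Y arrays and on none of the other 6. Its levels were -5.49, -4.57 and -5.12 in −Tx, -5.61, -5.07 and -4.97 in +Tx and -3.45, -3.14 and -3.85 in KO/Y ES cells. All these signals are low. A second probe, at 157387696 on chromosome 2 of mm9, was well above background on only 2 KO/Y arrays and was not kept. Its KO/Y levels were -3.60, -3.60 and -5.90, the last below all its −Tx and +Tx levels. Where a group was not above background, its level was bounded on each array by the dimmest signal that was, or by the probe's own if higher. On that bound *Nnat* was at least 1.58-fold higher in KO/Y than in −Tx ES cells and at least 1.56-fold higher than in +Tx ES cells. Both bounds are under 2-fold. The calls come from limma on the measured differences against signals at background (adjusted p = 0.00152 and 0.00228). No p was computed for the bounds, and the probe was kept only through the KO/Y group. The call over −Tx ES cells was lost with slide as a block (limma adjusted p = 0.164), and both calls were lost with normexp background correction and with a floor on low signals.

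*Dlk1*, the paternally expressed transmembrane protein with EGF-like repeats that gives its name to the *Dlk1*-*Meg3* cluster, rose in both steps. It was at 3.16, 3.26 and 3.22 in −Tx, at 3.52, 3.48 and 3.60 in +Tx and at 4.38, 4.35 and 4.43 in KO/Y ES cells, so that the 3 groups did not overlap. The log2 fold change was 0.33 in +Tx over −Tx (adjusted p = 0.006), 1.18 in KO/Y over −Tx (standard error 0.061, adjusted p = 1.86e-06) and 0.85 in KO/Y over +Tx ES cells (adjusted p = 3.93e-05). Its second, dimmer probe gave 1.17 in KO/Y over −Tx ES cells. *Meg3*, the maternally expressed noncoding RNA of the same cluster, did not follow it. *Meg3* was at 4.81, 4.75 and 4.76 in −Tx, 5.20, 5.23 and 5.06 in +Tx and 4.97, 5.09 and 5.06 in KO/Y ES cells, highest in +Tx, with a log2 fold change of 0.39 in +Tx over −Tx (adjusted p = 0.00451) and 0.26 in KO/Y over −Tx ES cells (adjusted p = 0.0122). *Mirg*, a noncoding RNA that hosts microRNAs further along the same strand, fell by 0.55 in KO/Y over −Tx (adjusted p = 0.000283) and had a log2 fold change of 0.02 in +Tx over −Tx ES cells. A second probe of *Mirg* gave -0.69 in KO/Y over −Tx ES cells. *Rtl1*, which lies between them, had no signal well above background on any array.

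The promoters of 5 of the 7 called genes are shown because control regions of imprinted clusters can lie at promoters, where the letters read by Zfp57 and the CG pairs that carry methylation can be seen. Of the 45 genes, 37 had 58 promoter windows in the RefSeq table of GRCm38.p6. Each window holds 250 bases before a transcription start and 50 after it, and the 250 bases before are printed here 5′ to 3′ in the direction of transcription. *Cdkn1c* was not in the table, and the 2 windows of *Asb4*, with 6 and 8 CG and no match, are not printed. Capitals mark TGCCGC read on either strand, that is also GCGGCA.
Mest, upstream start (chr6:30733256-30733505, plus strand): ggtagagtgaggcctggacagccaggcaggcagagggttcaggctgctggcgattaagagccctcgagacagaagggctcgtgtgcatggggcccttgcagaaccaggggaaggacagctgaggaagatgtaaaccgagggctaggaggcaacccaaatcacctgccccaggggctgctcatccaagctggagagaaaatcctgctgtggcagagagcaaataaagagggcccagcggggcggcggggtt
Mest, downstream start (chr6:30737800-30738049, plus strand): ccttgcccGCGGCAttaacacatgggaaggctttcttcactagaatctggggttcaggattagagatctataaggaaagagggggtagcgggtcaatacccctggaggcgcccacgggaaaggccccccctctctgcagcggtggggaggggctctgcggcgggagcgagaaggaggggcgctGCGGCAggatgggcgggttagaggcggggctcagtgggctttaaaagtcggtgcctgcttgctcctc
Plagl1 (chr10:13090582-13090831, plus strand): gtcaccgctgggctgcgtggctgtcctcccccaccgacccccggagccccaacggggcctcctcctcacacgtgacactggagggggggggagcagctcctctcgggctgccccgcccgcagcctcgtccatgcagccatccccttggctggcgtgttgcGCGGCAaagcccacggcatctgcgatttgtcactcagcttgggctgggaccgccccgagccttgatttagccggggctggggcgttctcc
Nnat (chr2:157559828-157560077, plus strand): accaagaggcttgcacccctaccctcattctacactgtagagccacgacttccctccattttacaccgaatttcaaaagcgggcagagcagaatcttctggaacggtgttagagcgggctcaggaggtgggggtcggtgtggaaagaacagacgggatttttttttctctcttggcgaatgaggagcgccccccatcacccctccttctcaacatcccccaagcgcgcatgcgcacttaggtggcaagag
Dlk1 (chr12:109452573-109452822, plus strand): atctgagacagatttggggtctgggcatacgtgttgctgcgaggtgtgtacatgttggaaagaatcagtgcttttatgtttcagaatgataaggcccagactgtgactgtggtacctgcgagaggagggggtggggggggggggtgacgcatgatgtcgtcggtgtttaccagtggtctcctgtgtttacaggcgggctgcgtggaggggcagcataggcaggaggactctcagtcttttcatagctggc
Phlda2 (chr7:143502525-143502774, minus strand): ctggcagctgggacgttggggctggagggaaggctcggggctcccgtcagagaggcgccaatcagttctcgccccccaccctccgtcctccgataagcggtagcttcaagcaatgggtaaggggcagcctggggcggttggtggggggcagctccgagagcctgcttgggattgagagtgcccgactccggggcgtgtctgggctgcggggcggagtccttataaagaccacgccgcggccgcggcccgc

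*Mest* had a start with 7 CG and no match in these 250 bases and another further downstream with 14 CG and 2 matches. *Plagl1* had 1 match and 19 CG, *Nnat* 12 CG, *Dlk1* 8 CG and *Phlda2* 21 CG, the last 3 with no match in the printed bases. *Nnat* had 1 match and 17 CG in its whole window of 300 bases. In the whole windows of 300 bases, 13 of 58 windows of imprinted genes (22.4%) held the letters, against 11.6% of all 32851 promoter windows, and the median number of CG was 13.5 against 7. Windows of paternally and maternally expressed genes held the letters in 23.1% and 25% and had a median of 9.5 and 19 CG. Several windows can belong to 1 gene and overlap, so these shares are a description without a test.

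In the *Kcnq1ot1*-*Cdkn1c* cluster on chromosome 7, the growth-limiting genes *Cdkn1c* and *Phlda2* fell and most other maternally expressed members did not. *Cdkn1c* encodes the cyclin-dependent kinase inhibitor p57. It was at 2.40, 2.36 and 2.34 in −Tx, 1.57, 1.51 and 1.60 in +Tx and 1.27, 1.22 and 1.46 in KO/Y ES cells. Most of the difference was present after 4 days, with a log2 fold change of -0.81 in +Tx over −Tx (standard error 0.074, adjusted p = 0.000177) and of -1.05 in KO/Y over −Tx ES cells (adjusted p = 1.21e-05), while KO/Y over +Tx gave -0.24 (adjusted p = 0.0427). *Phlda2*, whose product limits placental growth, was at 0.10, 0.19 and 0.33 in −Tx, -0.66, -0.40 and -0.61 in +Tx and -1.10, -0.73 and -0.84 in KO/Y ES cells. Its log2 fold change was -0.76 in +Tx over −Tx (adjusted p = 0.00231), -1.10 in KO/Y over −Tx (standard error 0.116, adjusted p = 0.000106) and -0.34 in KO/Y over +Tx ES cells (adjusted p = 0.0652). For both genes the −Tx arrays lay above all +Tx and KO/Y arrays. Both calls sit just past 2-fold. The call of *Cdkn1c* was lost with quantile normalization (-0.997) and that of *Phlda2* without KO/Y array 1 (-0.99), and both were lost with normexp background correction (-0.96 and -0.90).

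*Kcnq1ot1*, the paternally transcribed noncoding RNA that silences this cluster on its own chromosome, was at 1.31, 1.19 and 1.20 in −Tx, 1.21, 1.23 and 1.16 in +Tx and 0.35, 0.47 and 0.50 in KO/Y ES cells. It fell by 0.79 on the log2 scale in KO/Y over −Tx (standard error 0.066, adjusted p = 2.8e-05) and by 0.76 in KO/Y over +Tx ES cells, whereas +Tx over −Tx ES cells gave -0.03 (adjusted p = 0.762). Its second probe gave -0.65 in KO/Y over −Tx ES cells. The other members differed from this. *Ascl2*, a trophoblast transcription factor, *Osbpl5*, a lipid transfer protein, *Cd81*, a tetraspanin, and *Slc22a18*, a transporter, rose in KO/Y over −Tx ES cells with log2 fold changes of 0.59, 0.65, 0.36 and 0.30. *Ascl2* and *Osbpl5* also rose in +Tx over −Tx ES cells, by 0.41 and 0.53. *Tssc4* passed the test in no comparison (0.14, 0.12 and -0.02), and *Kcnq1* had no probe well above background on any array. In all, 4 of 8 tested genes of the cluster rose and 3 fell in KO/Y over −Tx ES cells, against 20.5% and 26.4% of all genes.

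**Figure D2:**
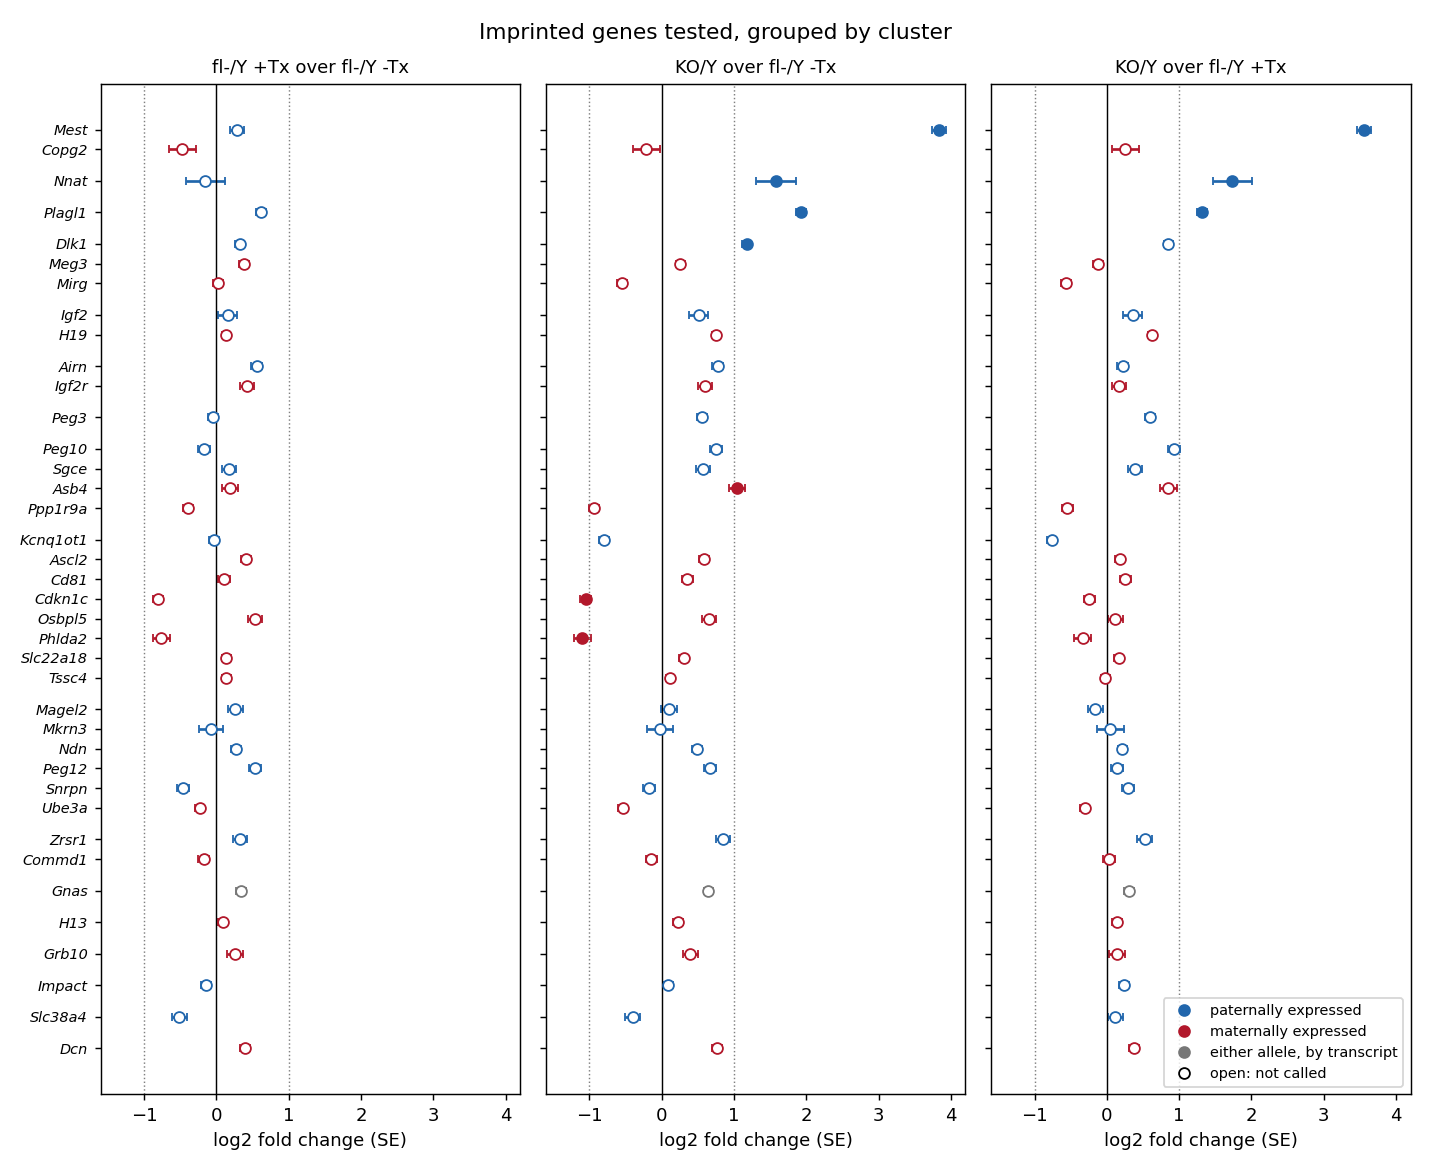
Log2 fold change with its standard error (horizontal axis) of the 38 tested imprinted genes (vertical axis, grouped by cluster) in the 3 comparisons. Colours give the parental copy that is known to be expressed, filled points are called genes, and dotted lines mark 2-fold; paternally expressed genes reach up to 3.84 and the 2 genes called lower are both maternally expressed, and the point of *Nnat* is a measured difference against signals at background, for which the text gives a bound.

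In the *Peg10*-*Sgce* cluster on chromosome 6 the neighbours moved in different directions. *Peg10*, a gene derived from a retrotransposon that is needed in the placenta, was at -1.03, -1.15 and -1.17 in −Tx, -1.33, -1.14 and -1.40 in +Tx and -0.36, -0.42 and -0.30 in KO/Y ES cells. It rose in KO/Y over −Tx (0.76, adjusted p = 0.00012) and over +Tx ES cells (0.93, adjusted p = 0.000124). *Sgce*, epsilon-sarcoglycan, which is transcribed away from it on the other strand, rose in KO/Y over −Tx ES cells with a log2 fold change of 0.57. *Asb4*, a maternally expressed gene with a SOCS box, was at -2.94, -3.01 and -3.06 in −Tx, -2.94, -2.89 and -2.60 in +Tx and -2.14, -1.81 and -1.93 in KO/Y ES cells, where all 3 arrays lay above the other 6. The gene was higher by 1.04 on the log2 scale in KO/Y than in −Tx ES cells (standard error 0.113, adjusted p = 0.000122). Its probes disagreed as well. A second probe of *Asb4*, at 5348463 on chromosome 6 of mm9 against 5382886 for the first, gave -0.01, and the call was lost without KO/Y array 2 (0.97), with slide as a block (0.85), with the mean of both probes (0.52) and with normexp background correction (0.51). *Ppp1r9a*, which encodes the actin-binding protein neurabin, fell in every comparison (-0.40, -0.94 and -0.54 in +Tx over −Tx, KO/Y over −Tx and KO/Y over +Tx ES cells), and its dimmer probe gave -0.25, -0.10 and 0.15 without passing. *Calcr*, the calcitonin receptor, was well above background on 1 of 9 arrays.

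The clusters known for the Igf2 pathway rose in KO/Y over −Tx ES cells, though at different steps, and stayed under 2-fold. In +Tx over −Tx ES cells *H19* and *Igf2* did not pass (limma adjusted p = 0.137 and 0.426). Of *H19*, *Igf2*, *Igf2r* and *Airn*, only *H19* passed in KO/Y over +Tx ES cells (0.62). *H19*, a maternally expressed noncoding RNA, was at 6.63, 6.68 and 6.64 in −Tx, 6.71, 6.84 and 6.79 in +Tx and 7.36, 7.42 and 7.43 in KO/Y ES cells, and rose in KO/Y over −Tx ES cells (0.75, adjusted p = 2.13e-05). Of its 7 probes, 6 gave log2 fold changes from 0.75 to 0.84, and the dimmest gave 0.61 without passing. *Igf2*, the paternally expressed growth factor across the cluster, rose by 0.51 in the same comparison (adjusted p = 0.0129), although its KO/Y arrays spread from 1.46 to 1.94. *Igf2r*, the receptor that clears Igf2, and *Airn*, the noncoding RNA that silences *Igf2r* on the paternal chromosome, rose already in +Tx over −Tx ES cells, with 0.43 and 0.56, and stood at 0.60 and 0.78 in KO/Y over −Tx ES cells. Of the 4 probes of *Airn*, which lies within and across *Igf2r*, 2 passed the test in KO/Y over −Tx ES cells (0.78 and 0.71), and the others gave 0.16 and 0.25. Here genes of opposite parental class in 1 cluster moved the same way. *Grb10*, an adaptor that limits growth factor signalling, rose by 0.40 in KO/Y over −Tx ES cells.

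The *Snrpn*-*Ube3a* cluster, known from Prader-Willi and Angelman syndromes, held small changes in both directions. *Peg12* and *Ndn*, the latter a growth suppressor of the MAGE family, rose in +Tx over −Tx (0.53 and 0.27) and in KO/Y over −Tx ES cells (0.67 and 0.49). *Snrpn*, a spliceosome component, fell after 4 days (-0.47, adjusted p = 0.0052) and was closer to −Tx in KO/Y ES cells (-0.18, adjusted p = 0.123). Its second probe fell after 4 days too (-0.42) but did not show this return, with -0.34 in KO/Y over −Tx ES cells (adjusted p = 0.00397) and 0.08 in KO/Y over +Tx ES cells. *Ube3a*, a ubiquitin ligase, fell in every comparison (-0.23, -0.54 and -0.31). *Magel2* and *Mkrn3* passed the test in none, and *Mkrn3* was measured on 2 KO/Y arrays, since its spot on KO/Y array 2 was marked as an outlier. In all, 2 of 6 rose and 1 fell in KO/Y over −Tx ES cells, against 20.5% and 26.4% of all genes.

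Genes that stand alone or in small groups were *Peg3*, *Zrsr1*, *Commd1*, *Gnas*, *H13*, *Impact*, *Slc38a4* and *Dcn*. *Zrsr1*, a splicing factor gene inside an intron of *Commd1*, was at -0.56, -0.45 and -0.56 in −Tx, -0.32, -0.30 and 0.02 in +Tx and 0.34, 0.23 and 0.41 in KO/Y ES cells, and its log2 fold change in KO/Y over −Tx ES cells was 0.85 (adjusted p = 0.000203). The host gene *Commd1* passed the test in no comparison, with -0.14 in KO/Y over −Tx ES cells. *Peg3*, a zinc finger gene, rose in KO/Y over −Tx (0.56) and over +Tx ES cells (0.60) but not in +Tx over −Tx ES cells (-0.04). Its neighbours *Usp29* and *Zim1* were well above background on 2 of 9 arrays each, counting all probes. *Slc38a4*, an amino acid transporter, fell in +Tx over −Tx (-0.52) and in KO/Y over −Tx ES cells (-0.40). *Gnas*, the alpha subunit of the stimulatory G protein, rose by 0.65 at its brightest probe in KO/Y over −Tx ES cells, while a dimmer probe at 174122337 of chromosome 2, further upstream, fell by 0.46 (adjusted p = 0.0136), and 2 more probes were not well above background on any array. *H13*, a signal peptide peptidase, gave 0.23, *Impact* 0.09 without passing, and *Dcn*, decorin of connective tissue, 0.77.

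**Figure D3:**
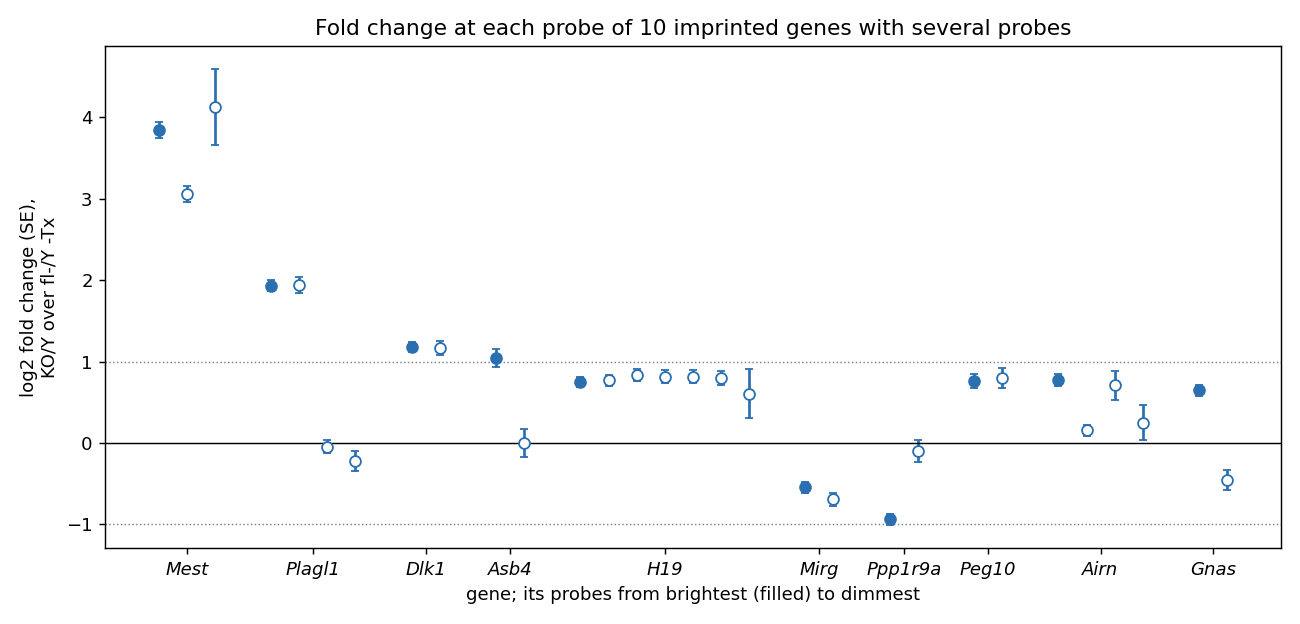
Log2 fold change with its standard error in KO/Y over −Tx ES cells (vertical axis) at every kept probe of 10 imprinted genes with several probes (horizontal axis). Within a gene the probes run from the brightest, filled, to the dimmest; *Mest*, *Dlk1* and the 7 probes of *H19* lie together, whereas 2 probes of *Plagl1* lie near 1.93 and 2 near 0. The third probe of *Mest* was at background in −Tx ES cells. Its point, at 4.13, is a measured difference against signals at background, for which the text gives a lower bound.

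Over all imprinted genes 69 of 83 probes were kept, and 18 genes had several of them. The probes of 13 of these 18 genes had the same sign and call in KO/Y over −Tx ES cells. The call differed between probes of *Asb4* and *Plagl1*, and the sign differed for *Asb4*, *Gnas*, *Impact*, *Meg3* and *Plagl1*. In KO/Y over +Tx ES cells the call differed for *Peg10*, whose dimmer probe reached 1.11, and for *Plagl1*.

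Paternally and maternally expressed genes did not move as 2 opposite blocks. Of 18 paternally expressed genes 12 rose and 2 fell in KO/Y over −Tx ES cells, and 11 of 19 maternally expressed genes rose and 5 fell, against 20.5% and 26.4% of all genes, with median log2 fold changes of 0.57 and 0.26. Of the 7 called genes, 4 of the 5 that were higher were paternally and both that were lower maternally expressed. The 4 include *Nnat*, which was kept only through the KO/Y group and called against signals at background. In +Tx over −Tx ES cells 6 paternally expressed genes rose and 2 fell, and 5 maternally expressed genes rose and 4 fell, against 11.9% and 14.7% of all genes, with medians of 0.17 and 0.13. In KO/Y over +Tx ES cells the counts were 11 and 1 for paternally and 4 and 4 for maternally expressed genes, against 12.1% and 14.1% of all genes, and the medians 0.32 and 0.14. On each array, the median deviation of the paternally expressed genes from their mean over the 9 arrays was set against that of the maternally expressed genes. The difference was between -0.16 and -0.05 in −Tx, between -0.18 and -0.07 in +Tx and between 0.17 and 0.33 in KO/Y ES cells. The KO/Y arrays did not overlap the other 6, and the sign itself follows in part from centring each gene on these arrays. Genes are not replicates and the members were chosen with results in view, so the difference between the classes was not tested.

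**Figure D4:**
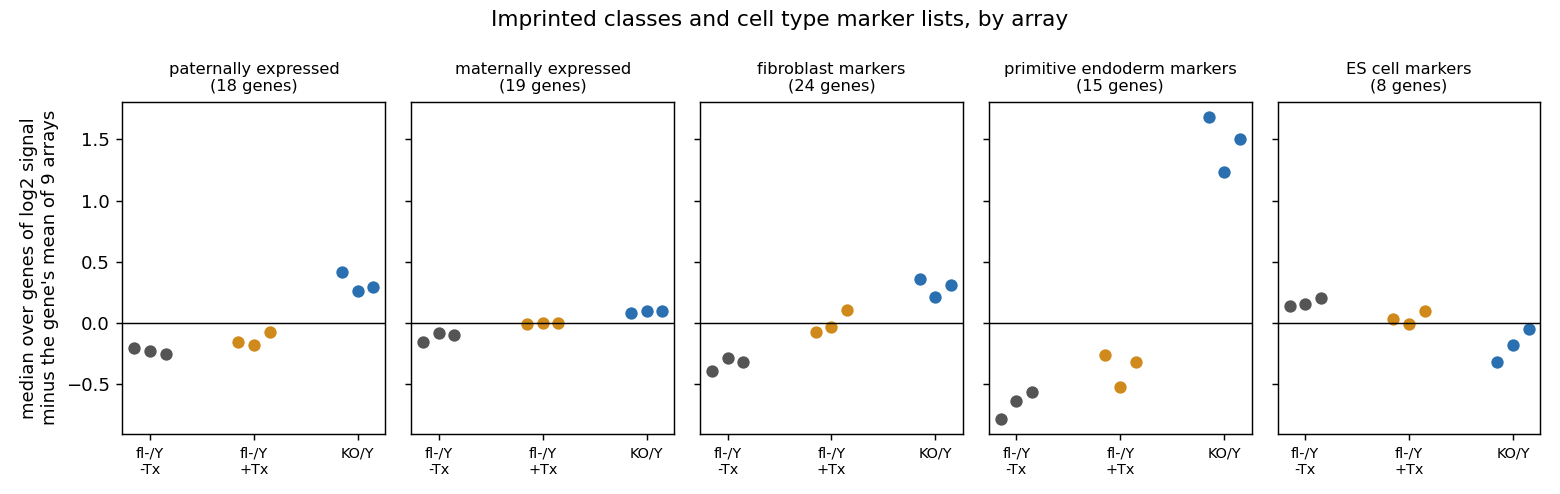
Median over the genes of a list of the log2 signal minus the gene's mean over the 9 arrays (vertical axis), for each array of −Tx, +Tx and KO/Y ES cells (horizontal axis). The panels show paternally expressed (18) and maternally expressed (19) imprinted genes and markers of fibroblasts (24), primitive endoderm (15) and ES cells (8); the imprinted classes, fibroblast and primitive endoderm markers were highest in KO/Y ES cells and ES cell markers lowest.

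Markers of cell types also changed, though not all in the same direction. All 24 fibroblast markers were well above background on all 9 arrays, and their summed signal, in units of the array's 75th percentile, was 504.9 to 533.7 in −Tx, 609.5 to 651.3 in +Tx and 716.7 to 772.3 in KO/Y ES cells. By the adjusted p alone 14 rose in +Tx over −Tx ES cells (11.9% of all genes). All 24 rose in KO/Y over −Tx ES cells (20.5% of all genes), and 2 of them were called higher (4.72% of all genes). Their log2 fold changes in KO/Y over −Tx ES cells ran from 0.23 to 1.16, with a median of 0.66. Of the imprinted genes that rose in KO/Y over −Tx ES cells, *Mest*, *Plagl1* and *Dlk1* lay above this range at the probe used. *Dlk1* did so only just (1.18), and *H13* lay just under the range. The further probes of *Plagl1* gave 1.94, -0.05 and -0.22, and those of *H13* 0.265, 0.65 and 0.45. The other imprinted genes that rose, apart from *Nnat*, lay within the range, *H19*, *Igf2*, *Dcn* and *Asb4* among them. *Nnat*, of which only a bound was measured, could not be placed. Of 17 primitive endoderm markers 15 were tested, *Afp* and *Ttr* not being well above background, and *Sox17* was at background in −Tx and +Tx ES cells. *Sox17* and *Sox7* were kept only through the KO/Y group. Of the 15, 0 were called higher and 1, *Foxa2*, lower in +Tx over −Tx ES cells (1.75% and 0.762% of all genes). In KO/Y over −Tx ES cells 12 of these markers were called higher and *Apoe* lower (4.72% and 2.84% of all genes), with a median of 2.27. Their summed signal, to which *Apoe* gave most in −Tx and +Tx and the laminin genes *Lama1* and *Lamb1* gave most in KO/Y ES cells, was 87.9 to 88.7 in −Tx, 67.7 to 74.3 in +Tx and 89.6 to 121.4 in KO/Y ES cells. Of 10 trophectoderm markers tested 4 were called higher and 1 lower in KO/Y over −Tx ES cells (4.72% and 2.84% of all genes). *Hand1* was at least 17.7-fold higher, and *Cdx2*, also called higher, was kept only through the KO/Y group. In +Tx over −Tx ES cells 1 trophectoderm marker was called higher and 3 lower (1.75% and 0.762% of all genes). The 3 include *Krt7*, which was at background in both groups. All 8 ES cell markers were well above background on every array, and their median log2 fold change in KO/Y over −Tx ES cells was -0.38. None was called, but by the adjusted p alone 4 fell and 1 rose (26.4% and 20.5% of all genes). The part of these cell types in the changes of the imprinted genes was not tested.

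Factors that set or keep imprints were expressed in all groups. All 25 listed, among them the DNA methyltransferase genes, *Uhrf1*, *Zfp57*, *Trim28* and *Ctcf*, were well above background on all 9 arrays. Of these, 4 rose and 14 fell in KO/Y over −Tx ES cells (20.5% and 26.4% of all genes), with a median of -0.26, against -0.06 over all genes. *Tet1*, which oxidizes methylated cytosine, was called lower in KO/Y over −Tx (-1.18, adjusted p = 8.16e-06) and, at the limit of 2-fold, over +Tx ES cells. *Ctcfl*, a germ line relative of Ctcf, was called higher (1.36 and 1.07), and *Khdc3*, a maternal effect gene, was called higher in KO/Y over −Tx ES cells (1.02). *Dppa3*, which protects the maternal genome from demethylation, was at -0.41, -0.56 and -0.69 in −Tx, -2.29, -2.20 and -2.09 in +Tx and -1.04, -1.10 and -0.96 in KO/Y ES cells. It was the one factor called after 4 days, with a log2 fold change of -1.64 (adjusted p = 6.84e-06), and it was called higher in KO/Y over +Tx ES cells (1.16).

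A further 40 imprinted genes were listed, of which 34 were tested. Of these, 4 were called higher and 2 lower in KO/Y over −Tx ES cells (4.72% and 2.84% of all genes), with a median of -0.02 over the list. The largest rises were those of *Xlr4b* and *Zfp264*, which were not well above background on any −Tx array and were at least 2.96-fold and at least 3.6-fold higher, and of *Xlr3b* (1.95, adjusted p = 2.63e-06). *Xlr4b* and *Zfp264* are among the 4 called higher and were kept only through the KO/Y group. *Xlr3b* and *Xlr4b* are X-linked relatives of each other, so that their probes may share signal. *Sfmbt2*, a Polycomb group gene of the placenta, was called lower in +Tx over −Tx (-1.44, adjusted p = 7.2e-05) and in KO/Y over −Tx ES cells (-1.82), and *Gpr1* was called lower in KO/Y over −Tx ES cells (-1.76, adjusted p = 1.57e-05). *Sfmbt2* was the one gene of this list called after 4 days.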

How the data were processed

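Total RNA was labelled with Cy3 and hybridised to single-colour Agilent arrays, 9 in all. Per the file headers the deposited processed intensity came from Agilent Feature Extraction 10.7.3.1 on an mm9 design. A spatially fitted background surface, identical to the background used at every spot (largest difference 0), had been subtracted, and nothing was normalized between arrays. The authors also deposited a table of group intensities, their mean of 3 arrays, used here for sizes only. The study analysed the arrays with NIA Array Analysis Software.

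Each array's log2 intensity was set relative to its 75th percentile. Outlier spots (117 to 178 per array) and control spots were left out, spots of a probe were averaged, and 59305 spots gave 55681 probes. Probes were kept if marked well above background on all arrays of some group, and the probe with the highest mean stood for its gene. Symbols of 27235 probes were updated through RefSeq accessions. The 3 groups were fitted together with limma 3.58.1 (lmFit and eBayes, R 4.3.3, with the data.table package, version 1.17.8), and p-values were adjusted by Benjamini-Hochberg over all genes. Values for further probes of a gene come from the same fit made over all kept probes. The precision is limited by the number of arrays. The fit was tested on simulated data. Text on imprinted genes gives every called gene by array, names the others in their clusters, and names the largest called genes of other lists. The members and the lists were chosen with earlier results of these data known. The alternatives were normexp (offset 50) in place of the surface, quantile and median scaling, other filters, a floor, outlier spots kept, the mean of probes, slide as a block or within a slide, only the 6 arrays compared, an intensity trend, no fold limit, and leaving out each array.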

Additional observations from a re-analysis of the deposited data

How the results depend on the processing

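With no fold limit, 12 imprinted genes were higher and 6 lower in +Tx over −Tx ES cells (0 and 0 with it), 24 and 7 in KO/Y over −Tx (5 and 2), and 16 and 5 in KO/Y over +Tx ES cells (3 and 0). In KO/Y over −Tx ES cells, normexp background correction left 3 higher and 0 lower, quantile normalization 1 lower, and slide as a block and the mean of the probes 3 higher each. Leaving out each array in turn gave 4 to 5 higher and 1 to 2 lower, without KO/Y array 1 losing *Phlda2* and without KO/Y array 2 losing *Asb4*. *Mest* and *Dlk1* kept their calls in KO/Y over −Tx ES cells in every setting run, with log2 fold changes of 3.23 to 3.90 and 1.15 to 1.24. Under the mean of probes *Peg10* was called higher in KO/Y over +Tx ES cells (1.02), and *Gnas*, which had risen there, gave -0.12. The cause of these changes was not tested.

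No paired analysis was possible because the labels give each group as replicates 1 to 3 together and do not say which array is which replicate. Within a slide, KO/Y over −Tx could not be fitted, since these groups never shared one, and their slide and genotype cannot be told apart without the +Tx arrays. Genes near background, *Nnat* above all, are limited by signal over background.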
